A study of Mus musculus with 38 samples.

Results

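The cell cycle and DNA replication genes described here are 34 genes of the 54352 in the deposited count table. Of these, 14 are grouped here as S-phase members, after the phase when DNA is copied. The other 20 are grouped as mitotic members, after mitosis, when the copies are separated. The mitotic group is loose, since some of its genes, such as Hmgb2 and Tubb5, are not confined to mitosis. Its summed level is therefore not a measure of mitosis alone. They were chosen by symbol, by matching the Ensembl identifiers of the table to the GENCODE annotation of the mouse build mm10, and all 34 were found. The rule and the division into S-phase and mitotic members use the symbols and their textbook roles.

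The genes were measured in intestinal stem cell organoids of C57BL6 mice, which are small epithelial structures grown in culture from isolated crypts. The 37 libraries used fell into 8 groups, made of 4 genotypes and 2 treatments. The genotypes were wild type (WT), Ppard-fl/fl (D), Ppara-null (A), and Ppard-fl/fl with Ppara-null (DA). Ppard and Ppara encode the lipid-sensing nuclear receptors PPARδ and PPARα. The treatments were 1 uM GW501516 (GW), a synthetic agonist of PPARδ, and 0.1% DMSO alone as vehicle (Veh). All organoids were held in 65% matrigel for 8 days and passaged 2 times, so that the WT vehicle group shared these conditions with every other group. Vehicle was measured in 5 WT, 5 D, 5 A and 4 DA libraries, and GW in 5 WT, 3 D, 5 A and 5 DA libraries. The labels name no recombinase for the floxed Ppard allele, and they do not say whether the libraries of a group came from separate animals or cultures. The p-values given here therefore measure only the spread between libraries, which may be technical. The GW group of D may include a sample whose genotype label names both genes, because 4 columns carry that group's name and its labels fit 3 samples.

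Polyadenylated RNA was profiled by 3′ digital gene expression, in which tags are read from the 3′ end of each transcript, so a level was not divided by transcript length. Levels are given as CPM, the counts of a gene in a library scaled to 1000000 counts. Libraries held 353347 to 577557 counts (median 483848), and mitochondrial transcripts took 7.55% to 10.6% of them. Epithelial markers were present in quantity, with 3486 counts of Epcam and 10013 of Krt8 over all libraries. Summed markers of Paneth cells, goblet cells and enterocytes lay above those of stem cells. Those of enteroendocrine and tuft cells lay below, at a mean of 180 CPM for 15 genes and 0.16 CPM for 6 genes. The sums depend on a few abundant genes, such as Defa24 at 5109 CPM, and do not count cells. The mean summed level was 12735 CPM for 11 Paneth cell markers, 4182 for 10 goblet cell markers and 2146 for 15 enterocyte markers. It was 339 CPM for 14 stem cell markers. Among these, Ascl2 and Olfm4 had the most counts, 1362 and 1215, and Tnfrsf19 the fewest, 12. Lgr5, a defining marker of intestinal stem cells, had 60. The 7 stromal markers had 0 to 4 counts each over all libraries, with Col1a1, Col1a2, Col3a1 and Pdgfra at 0. The 7 immune markers had 0 to 29 counts each, with Ptprc, Cd3e and Cd79a at 0 and Lyz2, Cd68 and Itgam at 29, 15 and 12. Ppara had 1 to 13 counts per library in WT and D and 0 to 3 in A and DA. Ppard had 0 to 4 counts in every group, too few to check the D genotype.

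In a dividing cell the MCM helicase unwinds the DNA, the PCNA clamp holds the polymerases on it, and enzymes of nucleotide synthesis supply the building blocks, while newly made histones package the copies. Entry into mitosis is driven by the kinase Cdk1 with its cyclins, and exit by the anaphase-promoting complex, which marks cyclin B for destruction. In the intestine, division takes place in the crypts, in stem cells and the transit-amplifying cells that descend from them, and it stops as the cells differentiate. Many S-phase genes are known targets of the E2F transcription factors. Many mitotic genes carry CCAAT boxes together with a cell cycle homology region (CHR), an element bound by the MuvB complex.

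Promoter sequences of 5 members are shown because S-phase and mitotic members differed in how often they matched these elements, most clearly the CHR. Slbp is among them because it was the member that passed a test between groups. Pcna and Hmgb2 were the S-phase and the mitotic member with the highest mean CPM among those with a match, whereas Cdk1, Mcm6 and Slbp were chosen after their values were seen. Each window holds 300 bases of RefSeq sequence of the build GRCm38.p6, the same assembly as mm10, from 250 bases before the transcription start to 50 after it, written 5′ to 3′ on the strand of the gene. Capitals mark matches on either strand to the CHR (TTTGAA or TTCGAA), to CCAAT, or to an E2F motif (TTTCCCGC, TTTCGCGC, TTTGGCGC or TTTGCCGC). In Mcm6 a pair of E2F matches on opposite strands overlap. The Pcna window is chr2:132253131-132253430 on the minus strand, the Mcm6 window chr1:128359656-128359955 on the minus strand, and the Slbp window chr5:33652525-33652824 on the minus strand. The Hmgb2 window is chr8:57511593-57511892 on the plus strand, and the Cdk1 window chr10:69352863-69353162 on the minus strand.
Pcna: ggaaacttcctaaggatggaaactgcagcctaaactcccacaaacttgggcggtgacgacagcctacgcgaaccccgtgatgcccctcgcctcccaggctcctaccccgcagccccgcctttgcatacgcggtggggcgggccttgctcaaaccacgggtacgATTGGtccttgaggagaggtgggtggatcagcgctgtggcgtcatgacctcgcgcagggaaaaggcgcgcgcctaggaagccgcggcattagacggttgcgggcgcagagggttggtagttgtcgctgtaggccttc
Mcm6: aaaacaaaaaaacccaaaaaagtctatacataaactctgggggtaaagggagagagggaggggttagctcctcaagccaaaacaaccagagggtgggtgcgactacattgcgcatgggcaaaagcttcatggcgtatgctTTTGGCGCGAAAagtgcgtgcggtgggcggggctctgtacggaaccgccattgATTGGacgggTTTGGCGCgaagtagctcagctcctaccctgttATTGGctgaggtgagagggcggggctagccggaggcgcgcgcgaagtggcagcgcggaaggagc
Slbp: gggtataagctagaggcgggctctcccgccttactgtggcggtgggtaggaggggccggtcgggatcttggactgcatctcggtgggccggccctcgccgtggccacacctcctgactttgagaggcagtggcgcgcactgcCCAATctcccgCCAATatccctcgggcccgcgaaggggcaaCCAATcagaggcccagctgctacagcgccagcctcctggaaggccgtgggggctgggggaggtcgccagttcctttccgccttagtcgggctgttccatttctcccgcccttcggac
Hmgb2: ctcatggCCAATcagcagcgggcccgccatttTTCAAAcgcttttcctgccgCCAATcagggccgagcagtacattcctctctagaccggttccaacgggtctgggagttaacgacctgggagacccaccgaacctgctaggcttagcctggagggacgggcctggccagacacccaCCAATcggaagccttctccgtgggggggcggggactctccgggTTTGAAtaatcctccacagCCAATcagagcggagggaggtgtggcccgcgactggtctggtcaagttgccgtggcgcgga
Cdk1: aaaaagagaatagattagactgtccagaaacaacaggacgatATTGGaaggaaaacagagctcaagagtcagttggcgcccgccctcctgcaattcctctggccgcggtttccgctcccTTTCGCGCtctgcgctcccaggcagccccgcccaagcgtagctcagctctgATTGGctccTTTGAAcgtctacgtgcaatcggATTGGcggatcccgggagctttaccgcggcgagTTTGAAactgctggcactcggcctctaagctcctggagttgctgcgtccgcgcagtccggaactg

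The Hmgb2 and Cdk1 windows each held 2 CHR matches, and Cdk1 also held 1 E2F match. The Mcm6 window held 3 E2F matches, and the Pcna and Slbp windows held CCAAT matches alone, 1 and 3 of them. Windows were found for 29 of the 34 members, and Ccna2, Mcm4, Stmn1, Gins2 and Tpx2 had none. Mcm7 had 2 windows, for separate transcription starts, and both were counted. A CHR match lay in 13 of the 17 mitotic windows (76.5%) and in 2 of the 13 S-phase windows (15.4%), against 19.2% of all 32851 windows in the RefSeq table. The mitotic windows without it were those of Cks2, Tubb5, Birc5 and Ccnb1, the mitotic members next to Hmgb2 in mean CPM. CCAAT was found in 94.1% of mitotic, 76.9% of S-phase and 37.4% of all windows. An E2F match lay in 5.88% of mitotic windows, 30.8% of S-phase windows and 2.27% of all windows. The S-phase windows with such a match were those of Mcm3, Mcm5 and Mcm6 and 1 of the 2 Mcm7 windows. A match is a description of these letters, and the absence of a match says only that the letters were not in the window.

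The members gave 65954 counts over the 37 libraries, 14198 from S-phase and 51756 from mitotic members, and every member had a count in every library. Hmgb2, which encodes a DNA-bending chromatin protein, supplied 30.7% of the mitotic counts. Mean levels ran from 898 CPM for Hmgb2 to 9.82 CPM for Plk1, the kinase that acts on the spindle and the centrosome. Mcm2, with 244 counts over all libraries, and Plk1, with 177, did not pass the filter on low counts, so 32 members were tested among 4902 genes. Among these 32, the mean of the highest group exceeded that of the lowest by a median factor of 1.34, from 1.09 for Cks2 to 2.14 for Slbp. The spread between libraries of the same group was of similar size, with a median coefficient of variation of 26.3% and a range from 11.0% to 47.1%. The highest group was a DA group for 18 of the 34 members. The share over all genes was not computed, so there is no background for this count. The members are also not independent observations, because their sums rose and fell together between libraries.

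The summed level of the S-phase members lay between 541 and 1081 CPM in the individual libraries. In vehicle it was 722 ± 120 CPM in WT, 765 ± 151 in D, 819 ± 83.2 in A and 872 ± 117 in DA (mean ± SD, with n as above). Under GW it was 804 ± 182 in WT, 783 ± 171 in D, 766 ± 113 in A and 888 ± 170 in DA. DA had the highest mean under both treatments, yet the ranges of all 8 groups overlapped. The mitotic members summed to 2833 ± 263, 2800 ± 443, 2844 ± 300 and 2935 ± 213 CPM in vehicle in WT, D, A and DA. Under GW the same sums were 3078 ± 349, 2955 ± 469, 2789 ± 345 and 3178 ± 481 CPM. These groups overlapped as well, and the difference between their lowest and highest mean was below the largest SD within a group. In bulk RNA such as this, fewer dividing cells and less RNA per dividing cell cannot be told apart.

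**Figure D1:**
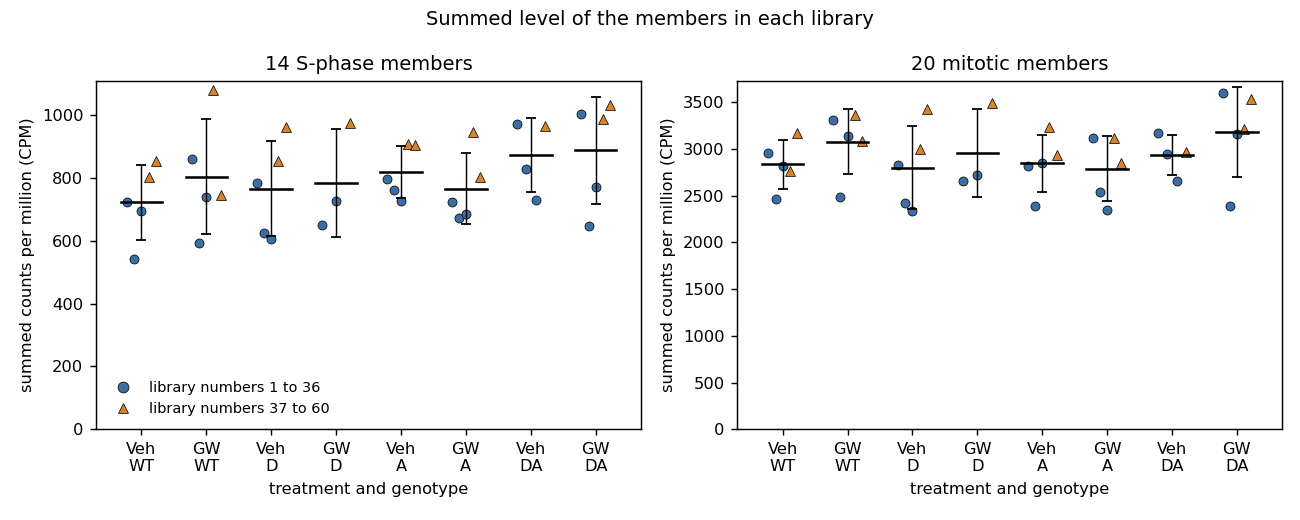
Summed CPM of the 14 S-phase members (left) and of the 20 mitotic members (right) in each of the 37 libraries, by treatment and genotype. Points are libraries, circles those numbered 1 to 36 and triangles those numbered 37 to 60, with the group mean as a line and the SD as a bar. The S-phase sums run from 541 to 1081 CPM and all groups overlap.

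With GW no tested member passed in any genotype. In WT, 21 of 32 members were higher and 11 lower, with a median log2 fold change of 0.07 against 0.0070 for all genes tested. edgeR's quasi-likelihood test under Benjamini-Hochberg adjustment called 0 members in WT, where 0.408% of all genes passed, and 3 members had an unadjusted p under 0.05 (6.18% of all genes had). In D the test called 0 members and 0% of all genes, with 2 members under an unadjusted 0.05 (3.24% of all genes) and a member median of 0.06. In A it called 0 members against 0.306% of all genes, with 0 members under an unadjusted 0.05 (3.59% of all genes) and a median of -0.01. In DA it called 0 members against 0% of all genes, with 1 member under an unadjusted 0.05 (3.20% of all genes) and a median of 0.09. DESeq2 and limma-trend also called 0 members in each of these comparisons.

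The intervals give the size of response that these data allow. In WT the 95% interval of the log2 fold change lay wholly within a 2-fold change in either direction for 29 of 32 members, in D for 24, in A for 30 and in DA for 28. It lay within a 1.5-fold change for only 12 members in WT, 11 in D, 15 in A and 14 in DA. Smaller responses within a genotype are therefore not bounded for most members. The median width to either side was 0.45 in WT, from 0.26 for Birc5 to 0.83 for Bub1b. Averaged over the 4 genotypes, the GW effect had an interval within 2-fold for all 32 tested members and within 1.5-fold for 30. In that average 23 members were higher and 9 lower with a median of 0.04, and edgeR's quasi-likelihood test called 0 members against 0.653% of all genes, with 1 under an unadjusted 0.05 (6.65% of all genes). DESeq2 and limma-trend called 0 there too.

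That member was Mki67, which encodes the Ki-67 protein that coats chromosomes in dividing cells and is widely used as a marker of proliferation. Its levels in D were 43.0, 36.8, 31.2, 52.6 and 50.3 CPM in vehicle and 58.8, 59.9 and 64.8 CPM under GW. All 3 GW libraries of D lay above all 5 vehicle libraries, which was true of 1.04% of all genes in that comparison and of no other member. In WT the levels were 54.0, 45.4, 61.4, 51.9 and 53.1 CPM in vehicle and 66.7, 56.0, 58.9, 98.7 and 35.5 CPM under GW. Here the groups overlapped, with the highest and the lowest library both under GW. A had 51.3, 41.3, 56.7, 63.0 and 38.4 CPM in vehicle and 55.6, 73.8, 60.6, 78.4 and 45.9 under GW, and DA had 50.8, 37.1, 47.3 and 53.0 in vehicle and 41.7, 50.6, 45.5, 66.5 and 103 under GW. These groups overlapped as well. The log2 fold change of Mki67 with GW was 0.19 in WT, 0.52 in D, 0.37 in A and 0.39 in DA. Averaged over genotypes it was 0.37 ± 0.11 (SE, 95% interval 0.14 to 0.59), a 1.29-fold level, with an unadjusted p of 0.0020 and an adjusted p of 0.177 by edgeR's quasi-likelihood test under Benjamini-Hochberg adjustment. Mki67 thus had the smallest p of all members for the mean GW effect and did not pass.

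**Figure D2:**
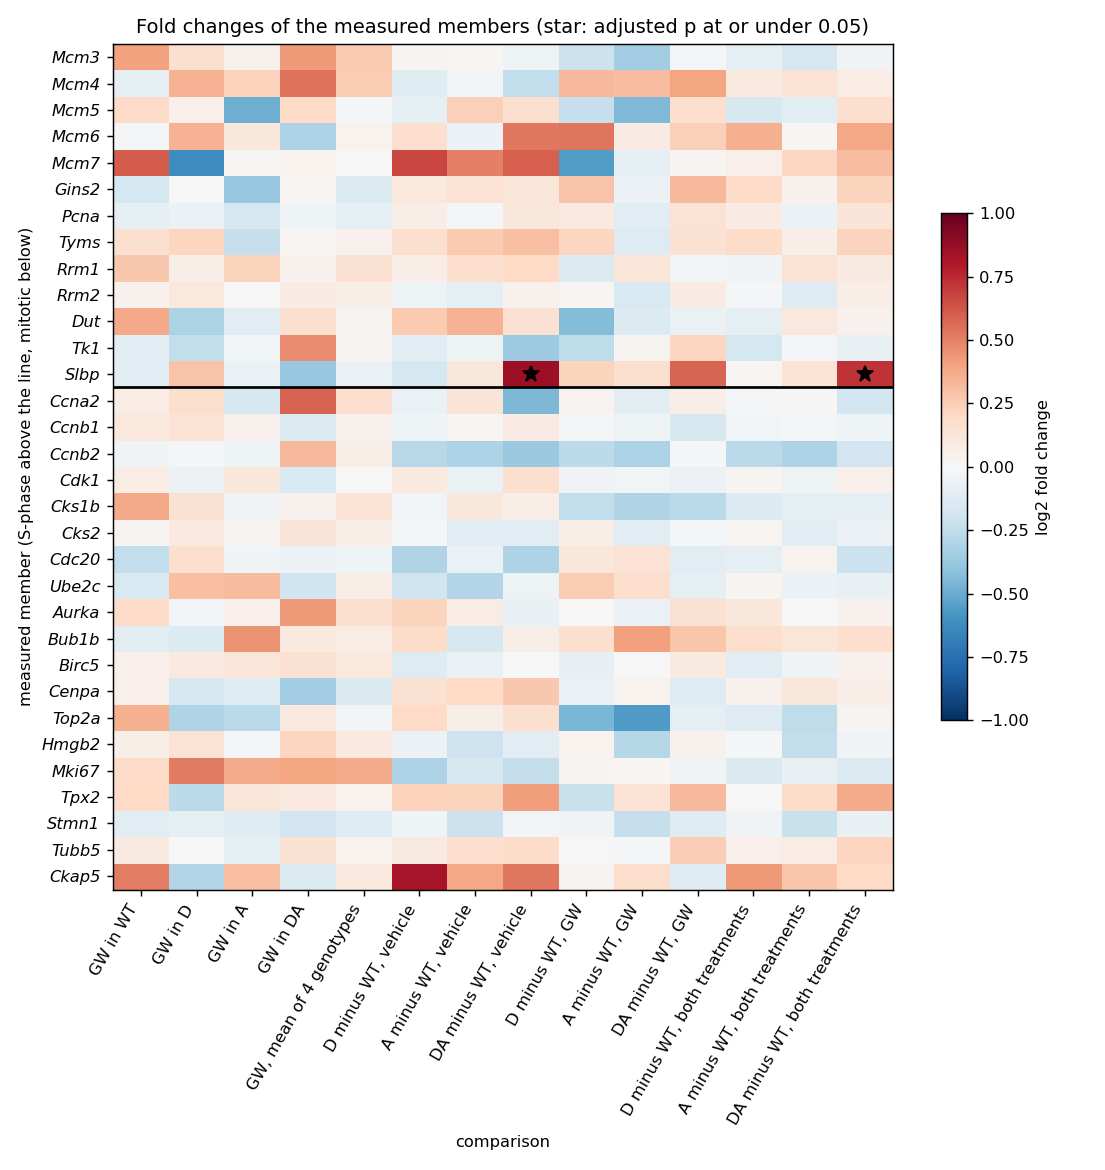
Log2 fold changes of the 32 tested members (rows, S-phase above the line and mitotic below) in the comparisons named on the x axis, with red for higher and blue for lower. Stars mark an adjusted p at or under 0.05, which only Slbp reached, in DA minus WT in vehicle and over both treatments.

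Differences of the GW response between genotypes were tested as interaction terms, and 0 of 32 members passed for D, A or DA minus WT in edgeR's quasi-likelihood test, where 0%, 0% and 0.0816% of all genes did. Unadjusted values under 0.05 were found for 3, 1 and 0 members, against 3.22%, 3.33% and 4.10% of all genes, and DESeq2 and limma-trend called 0. The widest difference was that of Mcm7, a subunit of the replicative helicase. Mcm7 had 22.5, 39.7, 29.7, 64.9 and 28.4 CPM in vehicle WT and 74.7, 44.8, 47.1, 88.8 and 37.5 CPM under GW. In D the order was the other way, with 66.5, 50.9, 38.1, 72.1 and 67.7 CPM in vehicle and 28.3, 34.2 and 53.6 under GW. In both genotypes the libraries of vehicle and GW overlapped. The response was 0.61 ± 0.24 (log2, SE) in WT and -0.63 ± 0.28 in D, a difference of -1.23 ± 0.37 with an unadjusted p of 0.0018 and an adjusted p of 1.00 in edgeR's quasi-likelihood test under Benjamini-Hochberg adjustment. Mcm7 overlaps Cops6 on the other strand, which had 1455 counts against 943 for Mcm7. The sources used here do not state whether counting used the strand, so the Mcm7 level is uncertain.

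Top2a encodes the topoisomerase that untangles sister chromosomes, and its libraries under GW had 174, 159, 120.1, 217 and 130.3 CPM in WT and 97.9, 128, 75.7, 135 and 98.3 CPM in A. The vehicle libraries had 117, 113, 119, 138 and 118 CPM in WT and 128, 95.1, 132, 172 and 137 in A. The WT libraries under GW were mostly high and the A libraries mostly low, with overlap between them. The log2 fold change of Top2a for A minus WT under GW was -0.57 ± 0.17 (SE), with an adjusted p of 0.467 in edgeR's quasi-likelihood test under Benjamini-Hochberg adjustment. For the GW response, Top2a gave -0.63 ± 0.24 in A minus WT and -0.66 ± 0.27 in D minus WT, and neither passed. Comparisons that share the WT libraries share their error, and Top2a and Mcm7 in D and A are not independent sightings.

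Against WT in vehicle, the members of the single genotypes D and A were divided about evenly between higher and lower. In D, 16 members were higher and 16 lower, and edgeR's quasi-likelihood test called 0 members against 0.0408% of all genes, with 2 members under an unadjusted 0.05 (3.47% of all genes). In A, 17 were higher and 15 lower, with 0 called against 0.0816% of all genes and 1 under an unadjusted 0.05 (4.45% of all genes). Under GW, D minus WT gave 0 called members against 0.0612% of all genes, and A minus WT 0 against 0.184%, each with 1 member under an unadjusted 0.05 (3.47% and 4.96% of all genes). With both treatments averaged, D minus WT gave 0 called members against 0.0612% and A minus WT 0 against 0.612%, with 1 and 2 under an unadjusted 0.05 (3.73% and 5.47% of all genes). DESeq2 and limma-trend called 0 members in these 6 comparisons.

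The smallest p in D against WT in vehicle belonged to Ckap5, which encodes a microtubule polymerase of the spindle. Its levels were 31.5, 9.46, 31.7, 28.1 and 20.9 CPM in WT and 56.7, 31.1, 27.7, 58.5 and 38.7 CPM in D. D was mostly higher but overlapped WT, and 1 WT library was far below the other 4. The log2 fold change of Ckap5 was 0.83 ± 0.26 (SE), with an unadjusted p of 0.0027 and an adjusted p of 1.00 in edgeR's quasi-likelihood test under Benjamini-Hochberg adjustment.

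**Figure D3:**
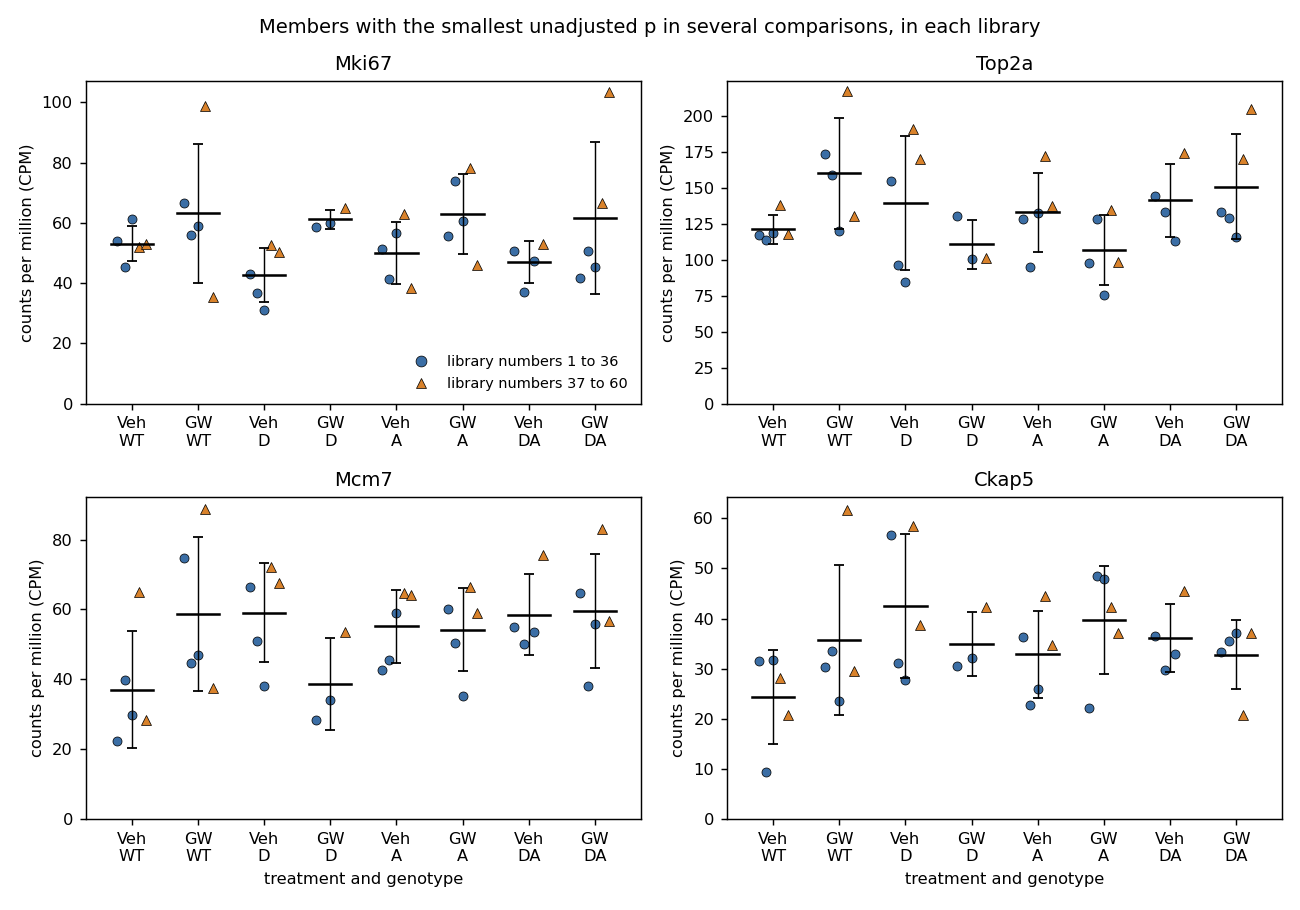
CPM of Mki67, Top2a, Mcm7 and Ckap5 in each library by treatment and genotype, with the group mean as a line and the SD as a bar, circles for libraries numbered 1 to 36 and triangles for 37 to 60. Mki67 under GW in D lies above vehicle in D without overlap, and the other pairs of groups compared in the text overlap.

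In DA the mean level of Slbp was above that of WT, and the difference passed edgeR's test in vehicle and over both treatments. The vehicle call was lost under several alternatives given below. Slbp encodes the stem-loop binding protein, which binds the 3′ end of replication-dependent histone mRNAs and is needed for their processing and translation in S phase. It lies at chr5:33634952-33652574 on the minus strand in mm10, and no gene with counts overlaps it. In vehicle the DA libraries had 50.8, 70.4, 80.2 and 92.7 CPM (73.5 ± 17.7, SD, n = 4) and the WT libraries 33.7, 34.0, 35.7, 49.7 and 41.7 CPM (39.0 ± 6.82, n = 5). Every DA library lay above every WT library, although the lowest of DA and the highest of WT were close. Separation in this direction held for 1.82% of all genes in that comparison and for no other member. Under GW the DA libraries had 62.5, 68.3, 41.4, 76.8 and 35.1 CPM (56.8 ± 17.9, n = 5) and the WT libraries 30.3, 33.6, 37.7, 51.8 and 33.6 CPM (37.4 ± 8.48, n = 5). Here 3 DA libraries lay above all WT libraries and the other 2 lay within their range.

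Libraries of the single genotypes overlapped those of WT under each treatment. Slbp stood at 29.3, 31.1, 27.7, 39.0 and 44.5 CPM in vehicle D and 41.4, 32.1 and 53.6 CPM under GW. In A the libraries had 34.2, 51.7, 49.6, 42.6 and 43.9 CPM in vehicle and 42.3, 36.9, 42.9, 52.3 and 32.8 CPM under GW. In order of group means, Slbp was highest in vehicle DA and then in GW-treated DA, and the other 6 groups followed from 44.4 CPM in vehicle A down to 34.3 CPM in vehicle D. Each group in that order differed from the next by less than the larger of their SDs. Sorting by mean keeps neighbours close, so this says nothing about groups farther apart in the order.

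By edgeR's quasi-likelihood test under Benjamini-Hochberg adjustment over all genes, the log2 fold change of Slbp in DA minus WT in vehicle was 0.85 ± 0.20 (SE, 95% interval 0.45 to 1.25), a 1.81-fold level with an adjusted p of 0.0409. Of the 32 members Slbp alone passed, against 0.326% of all genes, and 2 members had an unadjusted p under 0.05 (6.10% of all genes). Under GW the log2 fold change of Slbp was 0.59 ± 0.20 and edgeR's adjusted p was 0.257, and 0 members passed against 0.836% of all genes, with 1, Slbp itself, under an unadjusted 0.05 (8.69% of all genes). Over both treatments the difference of Slbp was 0.72 ± 0.14 (95% interval 0.43 to 1.00), a 1.65-fold level with an adjusted p of 0.00195 in edgeR's test, the 1 member called against 1.20% of all genes, while 2 members and 10.1% of all genes had an unadjusted p under 0.05. The GW response of Slbp within DA was -0.38 ± 0.19 (95% interval -0.76 to 0.01) and did not pass. DESeq2 and limma-trend called 0 members in vehicle, where the adjusted p of Slbp was 0.0963 and 0.109. They called 0 members under GW and 1 over both treatments.

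Slbp in DA was also set against the single genotypes, in comparisons chosen after its values were seen. Over both treatments DA minus D was 0.70 ± 0.15 with an adjusted p of 0.0116 in edgeR's test, the 1 member called against 0.816% of all genes and the 1 under an unadjusted 0.05 (9.47% of all genes). DA minus A was 0.58 ± 0.14 for Slbp with an adjusted p of 0.133 in edgeR's test, 0 members being called against 0.0204% of all genes and 2 having an unadjusted p under 0.05 (4.0% of all genes). The departure of Slbp in DA from the sum of the D and A differences was 0.56 ± 0.21 with an adjusted p of 1.00 in edgeR's test. In that comparison 0 members and 0% of all genes were called, with 2 members under an unadjusted 0.05 (3.75% of all genes). For DA minus A and for the departure from the sum, DESeq2 and limma-trend called 0 members. The call in DA minus D was lost without GW D replicate 2 (edgeR's adjusted p 0.0599) and with only the groups compared in the fit (0.0504). It was also lost within the 14 later libraries, where GW D and vehicle DA had 1 library each. DA minus A passed without GW DA replicate 5 (edgeR's adjusted p 0.0312). The comparisons of DA share its 9 libraries and are not independent.

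The Slbp values rest on 11 to 49 counts per library. The vehicle call was also lost when any of 8 of the 9 libraries compared was left out, edgeR's adjusted p reaching 0.208 without Veh DA replicate 4. It was lost too with no filter on low counts (edgeR's adjusted p 0.151), with only the groups compared in the fit (0.107) and without the columns with suffix 2 (0.0566). The call over both treatments held without any single library, with edgeR's adjusted p at 0.0104 or below, and among the alternatives run was lost only within the 14 later libraries. Within libraries numbered 1 to 36 the Slbp difference was 0.87 in vehicle (edgeR's adjusted p 0.160) and 0.79 over both treatments (0.0179). Within the later libraries it was 0.98 in vehicle (0.880) and 0.71 over both treatments (0.337), where vehicle DA had 1 library, assumed to vary like the other groups.

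**Figure D4:**
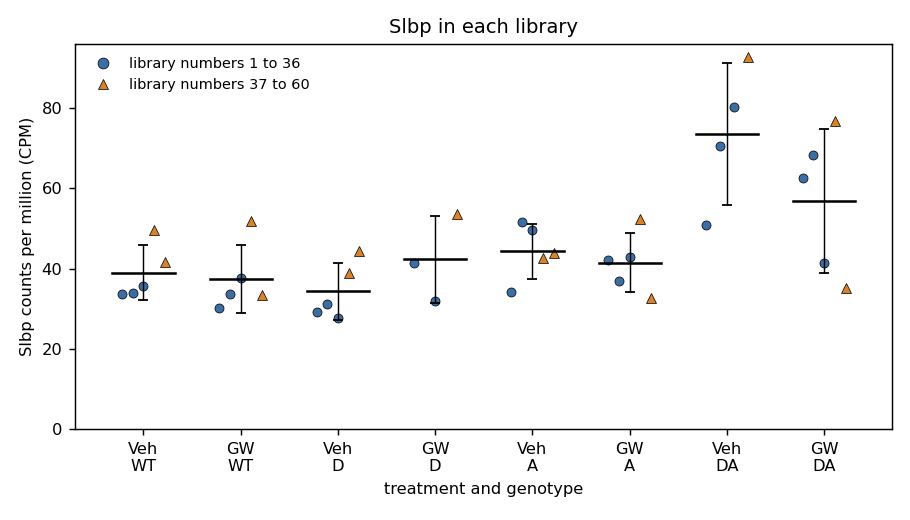
Slbp CPM in each library by treatment and genotype, with the group mean as a line and the SD as a bar, circles for libraries numbered 1 to 36 and triangles for 37 to 60. All 4 vehicle DA libraries lie above all 5 vehicle WT libraries, and under GW 3 of 5 DA libraries lie above all WT libraries.

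The other S-phase members were mostly higher in DA, though none of them passed. Over both treatments 10 of the 12 tested S-phase members other than Slbp were higher in DA than in WT, with a median log2 fold change of 0.11, against 48.7% of all genes and a median near 0. The mitotic members were evenly divided, 9 higher and 10 lower with a median of -0.03. The median of the 12 was 0.14 in vehicle and 0.15 under GW, with 9 of 12 higher in each, against 49.5% and 49.4% of all genes. The sums of S-phase and mitotic members rose and fell together between libraries of a group, so members are not independent observations. A few high libraries could move many of them at once. The comparison over both treatments also reuses the libraries of the separate treatments. Tyms, the enzyme that makes thymidylate, had 108, 85.1, 147, 115 and 127 CPM in vehicle WT and 165, 132, 136 and 165 CPM in vehicle DA. The groups overlapped, with the DA libraries in the upper part of the range. Over both treatments the difference of Tyms was 0.23 ± 0.11 with an adjusted p of 0.507 in edgeR's quasi-likelihood test under Benjamini-Hochberg adjustment. Mcm7 gave 0.31 ± 0.17 and an adjusted p of 0.550 in the same test. Among mitotic members Tubb5, a β-tubulin of the spindle and of interphase microtubules, had the smallest p, at 0.21 ± 0.10 and an adjusted p of 0.459 in edgeR's test.

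By role, the helicase subunits and Gins2 were low in count. The helicase subunits Mcm3, Mcm4, Mcm5 and Mcm6 and the fork factor Gins2 had mean levels of 35.6, 22.3, 31.1, 25.8 and 31.3 CPM. Their highest group mean exceeded the lowest by factors from 1.33 for Gins2 to 1.55 for Mcm5. Mcm3 varied most of all tested members between libraries of the same group, with a coefficient of variation of 47.1%. Among these 5 genes the lowest was the 28.3% of Gins2, and counting error alone would give 24.3% to 30.7%. Mcm2, which was not tested, ran from 11.2 CPM in its lowest group to 16.1 in its highest. Pcna, the polymerase clamp, was the highest S-phase member. Its vehicle levels were 184, 127, 149, 136 and 207 CPM in WT and 216, 159, 150.1 and 197 CPM in DA. Under GW they were 166, 129.8, 127, 170.2 and 179.6 CPM in WT and 252, 93.7, 169.6, 127 and 227 CPM in DA. Libraries of DA spanned those of WT under GW, and the Pcna group means ran only from 144 to 180 CPM.

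Members of nucleotide supply had group means within 1.49-fold of each other. Rrm1 and Rrm2, the subunits of ribonucleotide reductase, had mean levels of 102 and 72.5 CPM, and their highest group mean exceeded the lowest by 1.34-fold and 1.20-fold. Rrm2 had 78.7, 49.2, 81.2, 69.2 and 75.8 CPM in vehicle WT and 60.6, 51.5, 56.5, 121 and 88.8 CPM under GW, overlapping ranges with 1 high GW library. Tk1, which salvages thymidine, and Dut, which removes dUTP, had 35.2 and 34.3 CPM. The factor between their extreme group means was 1.44 and 1.49, and the 3 GW libraries of D were the lowest group of both.

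Among the mitotic drivers of entry, the group means of Ccnb1 and Cdk1 lay closer together than those of Ccna2. Ccnb1, cyclin B1, averaged 184 CPM and its group means lay between 170.0 and 196 CPM. Cdk1, its kinase partner, averaged 129 CPM with group means from 123 to 143 CPM. In vehicle Cdk1 had 126, 77.5, 117, 141 and 154 CPM in WT and 161, 139, 125 and 146 CPM in DA, with overlap. Cks2, a small Cdk-binding subunit, was the least variable member, at 417 to 453 CPM between its extreme group means and 11.0% within groups. Its paralog Cks1b averaged 101 CPM and ranged from 88.8 in vehicle D to 122 in GW-treated WT, a log2 fold change with GW in WT of 0.38 ± 0.17 that did not pass. Ccna2 and Ccnb2, cyclins A2 and B2, had 20.5 and 29.8 CPM. The group means of Ccna2 ran from 15.1 to 23.2 CPM and those of Ccnb2 from 26.7 to 33.6 CPM. Ccna2 overlaps Exosc9 on the other strand, which had 998 counts against 359 for Ccna2, so its level is uncertain in the same way as that of Mcm7.

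Genes of mitotic exit and the checkpoint did not pass in any comparison between groups either. Cdc20, the activator of the anaphase-promoting complex, averaged 20.6 CPM with group means from 18.7 to 22.8 CPM, and overlaps Elovl1, which had 1811 counts against its 359. Ube2c, the ubiquitin-conjugating enzyme of that complex, averaged 48.9 CPM. Birc5, survivin of the chromosomal passenger complex, averaged 226 CPM and had the narrowest intervals of all members. Bub1b, a spindle checkpoint protein, averaged 13.9 CPM and had the widest. Aurka, the centrosomal kinase, had 44.7, 53.8, 39.1 and 49.2 CPM in vehicle DA and 70.9, 45.6, 68.2, 70.6 and 56.6 CPM under GW. The GW libraries were mostly higher and overlapped the others. The log2 fold change of Aurka was 0.42 ± 0.17 with an adjusted p of 1.00 in edgeR's quasi-likelihood test under Benjamini-Hochberg adjustment.

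Chromosome and spindle members completed the set. Hmgb2 ranged from 795 ± 184 CPM in GW-treated A to 1015 ± 263 CPM in GW-treated DA. Over both treatments A minus WT was -0.25 ± 0.11 for Hmgb2 and -0.25 ± 0.12 for Top2a, the pair with an unadjusted p under 0.05 there, and edgeR's quasi-likelihood test under Benjamini-Hochberg adjustment gave adjusted p values of 0.854 and 0.904. Cenpa, the centromeric histone, averaged 52.4 CPM, Stmn1, which destabilizes microtubules, 75.2 CPM, and Tpx2, an activator of Aurka on the spindle, 29.0 CPM. None of these 3 passed in a comparison between groups.

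Levels of these genes also differed with the position of a library in the numbering of the table. The column names carry numbers, and 23 used libraries were numbered 1 to 36 and 14 from 37 on, with both stretches in all 8 groups. What the numbers stand for is not given in the sources used here. The cut after 36 was chosen because libraries separate by these numbers, with earlier results of these data known. The test across it is therefore a description of these libraries. With the group in the model, 8 of 32 members differed between the stretches in edgeR's quasi-likelihood test, close to the 24.2% of all genes that did. Mcm3, Mcm5, Rrm2, Ccnb1, Ccnb2 and Stmn1 were higher in the later libraries, by log2 values of 0.50, 0.42, 0.33, 0.20, 0.46 and 0.40. Cks2 and Cks1b were lower, with log2 differences of -0.26 and -0.23. In all, 26 of 32 members were higher in the later libraries with a median of 0.16, against 2741 of 4902 genes and a median of 0.04.

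The S-phase sum averaged 732 CPM in the earlier and 915 CPM in the later libraries, and the later mean was higher in each of the 8 groups, by 123 to 288 CPM. The mitotic sum averaged 2786 and 3152 CPM, and was higher in each group by 39.8 to 810 CPM. The summed level of 10 goblet cell markers was 4684 ± 817 CPM (SD) in the earlier and 3359 ± 337 CPM in the later libraries, and 15 enterocyte markers summed to 1994 ± 306 and 2394 ± 348 CPM. The stem cell markers summed to 343 ± 61.7 and 331 ± 74.8 CPM. Their part in the levels of the cell cycle genes was not tested. Slbp differed by 0.11 ± 0.11 between the stretches and did not pass, and with the stretch as a term in the model the members called in each comparison between groups stayed at the same number.

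**Figure D5:**
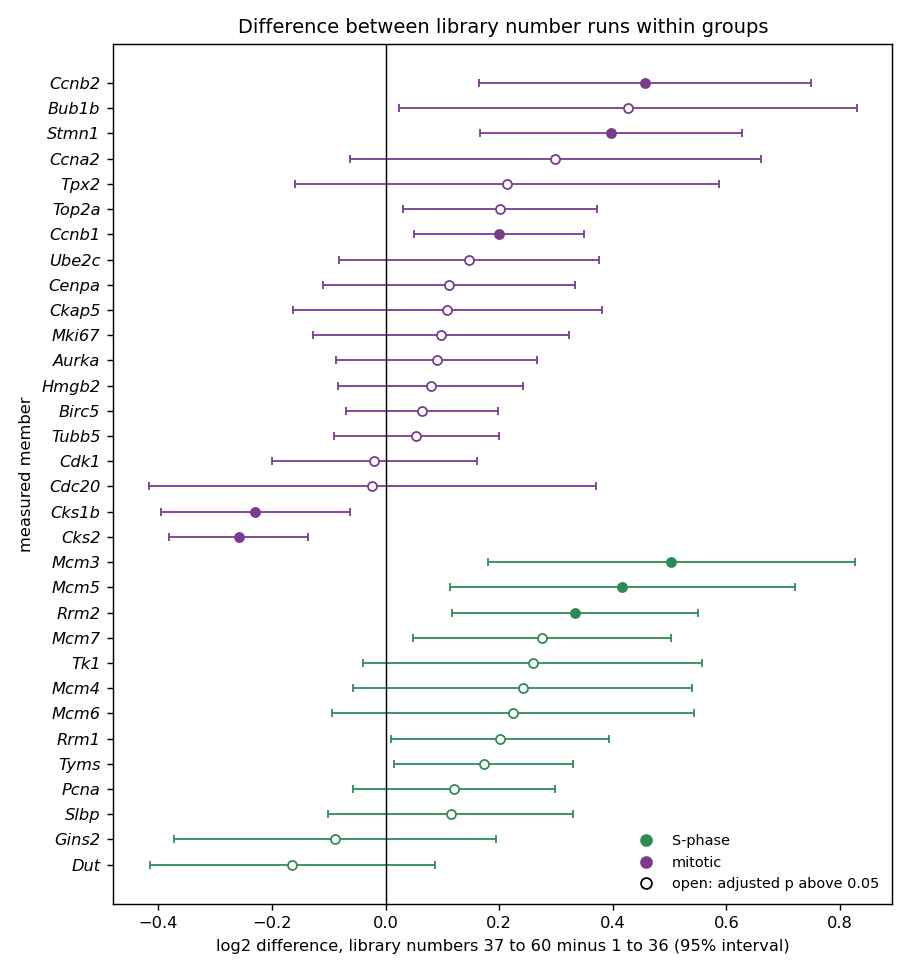
Log2 difference of each tested member between libraries numbered 37 to 60 and 1 to 36, with the group in the model and bars for the 95% interval, S-phase in green and mitotic in purple. Filled points passed an adjusted p of 0.05, 6 members higher and 2 lower in the later libraries.

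Libraries of the same group that were high in S-phase members were also high in mitotic members. With group means removed, the sums correlated at Pearson r = 0.86 and Spearman rho = 0.85 over 37 libraries, at r = 0.86 without the 2 libraries farthest out in the S-phase sum, and at r = 0.80 with the means of the library numbers removed as well. These values are descriptions without a p, since the sums come from the same libraries and share their depth and composition. The sum of the members followed that of 57 other replication genes (r = 0.90) and 60 other mitotic genes (r = 0.91) in the same way, and that of 49 regulators of G1 and the cell cycle less closely (r = 0.56). Its correlation with the stem cell markers was 0.16, or 0.28 with the means of the library numbers removed too. With total counts it was 0.18, or 0.08, and with Paneth cell markers 0.18, or 0.17. With enterocyte markers it was 0.16, or -0.27. With goblet cell markers it was -0.57, or -0.19 once the means of the library numbers were removed too, and with enteroendocrine markers 0.50, or 0.43.

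None of the tested genes of the wider cell cycle pathway passed either. Of the other replication genes 38 were tested, of the other mitotic genes 43, and of the G1 regulators 18, and in each of the comparisons between groups edgeR's quasi-likelihood test called 0 of them. At an unadjusted p under 0.05 there were 0 to 4 of the replication genes, 0 to 6 of the mitotic genes and 0 to 2 of the G1 regulators in a comparison, against 3.20% to 10.1% of all genes. In DA against WT over both treatments, 26 of 38 other replication genes were higher, with a median log2 fold change of 0.13 and 1 under an unadjusted p of 0.05. The summed level of these genes followed that of the members between libraries, so the genes are not independent observations. The other mitotic genes had 23 of 43 higher with a median of 0.02 and 4 under an unadjusted 0.05, and the G1 regulators 11 of 18 with a median of 0.03 and 2 under it, where 10.1% of all genes were. The smallest adjusted p was that of Cenpe, the kinetochore motor, at 0.0595 by edgeR's test with a log2 fold change of 0.41 ± 0.11. Prc1, which bundles the central spindle, gave 0.42 ± 0.13, and Arl6ip1, from the same list, gave -0.44 ± 0.13. For the mean GW effect the other replication genes had 20 of 38 higher with a median of 0.03 and 4 under an unadjusted 0.05 (6.65% of all genes). Rfc1, the large subunit of the clamp loader, had the smallest p among them, at 0.27 ± 0.09.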

How the data were processed

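The files deposited by the authors are a table of estimated counts, 1 row per Ensembl identifier, and a table of log2 values. The submitters' processing notes name the build mm10 and the tools Salmon (1.1.0), edgeR (3.26.8) and R (3.6.2). The annotation release, the filters and the use of strand are not given in the sources used here. The counts are whole numbers, but only 88.6% of the nonzero values of the deposited log2 table came back within 0.01 of a whole count, so the counts were taken as rounded estimates. The log2 table was used for that check alone. Of 57 columns, 37 were assigned to a group because their names state treatment and genotype. Left out were 20 columns, namely 19 marked KD, which no label holds, and 1 of the 4 named for GW in D. Of the 38 samples in the labels, 1 has a title and a genotype that differ and was left without a group. Columns carry no replicate numbers, so replicates are numbered in column order. 4 used columns carry an unexplained suffix 2. Of the 54352 identifiers, 54179 had a symbol.

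Low counts were removed with filterByExpr by group, which left 4902 genes. All 8 groups were fitted in 1 model with TMM scaling in R 4.3.3 by glmQLFit and glmQLFTest of edgeR 4.0.16. The p-values were adjusted by Benjamini-Hochberg over all 4902 genes within each of 17 comparisons and 3 added later, and a gene passed at 0.05. Standard errors were worked back from each log2 fold change and its quasi-likelihood F statistic. The 95% intervals were built from these and, like the counts, cover no error beyond these libraries. DESeq2 1.42.0 and limma-trend (limma 3.58.1, prior count 2) were alternatives, and the fit was tested on simulated data. Members named with values were those that passed, the 4 with the smallest p in a comparison, and the reference members Mcm2, Mcm5, Pcna, Rrm2, Tyms, Mki67, Top2a, Ccnb1, Cdk1 and Cdc20. The members, the lists and the tests were chosen with earlier results of these data known.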

Additional observations from a re-analysis of the deposited data

Results flagged for a closer look

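A library standing apart from the others of its group in the level of a member was found in 17 of 238 combinations of member and group of 4 or 5 libraries, where Dixon's criterion at 95% gives about 1 in 20 by chance. Replicates are numbered in column order. No explanation was tested for any of them.

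Among S-phase members, Mcm4 was low in GW A replicate 2, at 15.5 CPM against 26.1 to 28.9 in the others. Mcm5, the helicase subunit, was high in Veh WT replicate 5 at 56.9 CPM, in GW WT replicate 4 at 64.1 CPM and in GW DA replicate 4 at 54.0 CPM. Tyms was low in GW WT replicate 2, at 76.1 CPM against 137 to 158 in the others.

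Among the genes of mitotic entry, Ccna2 was high in GW WT replicate 4 at 44.4 CPM, and Ccnb2 was high in Veh DA replicate 4 at 41.6 CPM. Ccnb1 was high in Veh A replicate 4 at 246 CPM and low in GW DA replicate 2 at 127 CPM. Cdk1 was high in GW A replicate 1 at 167 CPM. Ube2c was low in Veh A replicate 2 at 26.9 CPM.

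Among chromosome and spindle genes, Cenpa was high in Veh D replicate 5 at 73.5 CPM, in Veh A replicate 4 at 79.7 CPM and in GW A replicate 4 at 86.4 CPM. Top2a was high in Veh WT replicate 4 at 138 CPM. Ckap5 was high in GW WT replicate 4 at 61.7 CPM and low in GW DA replicate 4 at 20.8 CPM. The Slbp level met the criterion in none of the groups tested.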

How the results depend on the processing

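The member medians of all 20 comparisons moved by less than the spread between libraries under every alternative run. In DA minus WT in vehicle the number of members called was 1, and it was 0 with DESeq2, with limma-trend, with no filter on low counts, with only the groups compared, within libraries numbered 1 to 36 or 37 to 60, and without the columns with suffix 2. Over both treatments it went from 1 to 0 within libraries 37 to 60 alone. In DA minus D it went from 1 to 0 with only the groups compared (Slbp 0.71, edgeR's adjusted p 0.0504). Within libraries 37 to 60, with 1 GW library of D and 1 vehicle library of DA, Slbp in DA minus D was 0.62. Leaving out each library in turn gave 0 to 1 members called in DA minus WT in vehicle, in DA minus D and in DA minus A. The 1 call in DA minus A arose without GW DA replicate 5 (Slbp 0.66, edgeR's adjusted p 0.0312). DA minus D was lost without GW D replicate 2 (0.64, 0.0599). With no filter the Slbp adjusted p in vehicle was 0.151, with only the groups compared 0.107, and without the suffix 2 columns 0.0566, at log2 fold changes of 0.85, 0.86 and 0.99. Directions turned in 7 cases, none of them called. Top2a with GW in D became 0.017 within libraries 1 to 36. Within libraries 37 to 60, Ube2c with GW in D became -0.32 and Dut in A minus WT in vehicle -0.040. There Mcm6 in D minus WT became -0.00039 under GW and -0.026 over both treatments. Ccnb2 in D minus WT over both treatments became 0.018, and Cks1b in the GW response of DA minus WT 0.096. In that stretch all but the Dut value rest on a group with 1 library, GW D or vehicle DA. The cause was not tested.

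No paired analysis was possible because the columns carry no replicate numbers. Depth limits the members with few counts, and Bub1b had the widest intervals. With 3 GW libraries, D had the fewest members bounded within 2-fold among the GW comparisons.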
